A study of Mus musculus with 23 samples.

Results

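The Ly6 surface antigens are small proteins tethered to the outer cell membrane, and several of them serve as antibody targets for sorting blood cells. The 6 genes described here, Ly6a, Ly6c1, Ly6c2, Ly6d, Ly6e and Ly6g, were taken by symbol, by a rule that uses no measured value, with earlier results of these data known. They are 6 of the 32285 genes in the count matrices. Their unique molecular identifiers (UMIs, 1 per captured RNA molecule) were counted in 16 single-cell RNA libraries from mouse spleen, lymph node (LN) and marrow (bone marrow, BM), with or without a change at 1 tyrosine (Y665) of STAT5B, a transcription factor activated by cytokine receptors.

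All mice were 2-month-old C57BL/6 mice by the labels, and the methods give C57BL/6N as the strain in which the mutations were made. The LN libraries came from WT (n = 2), STAT5B-Y665F heterozygous (het, n = 3) and STAT5B-Y665F homozygous (homo, n = 2) animals. The BM libraries came from WT (n = 2), STAT5B-Y665H (n = 2) and STAT5B-Y665F (n = 2) mice, and the spleen gave 1 library each of WT, Y665H and Y665F. Zygosity stands in the labels for LN but not for spleen or BM. The mutations sit in the germline and so were present in every cell type. Y665F was made with Cas9 and an oligonucleotide donor, and Y665H by base editing. Each spleen library was a pool of several mice enriched for CD45+ leukocytes, so the spread between mice cannot be seen there. The paper's caption for the pooled samples names lymph nodes, although the title of that figure names spleen. For the LN and BM replicates, no source says whether they are separate animals. In LN p-values then measure at most the spread between these libraries, which may be technical. In BM the replicates of each genotype differed in sex (values below), so they were not the same animal, and sex and replicate cannot be told apart.

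LY6 proteins fold into a compact domain of finger-like loops held by disulfide bonds, and most are anchored by a glycolipid. Ly6a encodes Sca-1, the classic surface marker of mouse hematopoietic stem cells, which interferon also induces on lymphocytes. Ly6c1 and Ly6c2 encode the Ly6C antigen of monocytes, plasma cells and memory CD8 T cells, Ly6d marks lymphoid progenitors committed to the B lineage, and Ly6g is the defining antigen of mouse neutrophils. Ly6e is broadly expressed, is interferon-inducible and limits the entry of several viruses.

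Ly6c1 and Ly6c2 are so alike that their sequences bear on how the values of both are read. Their coding sequences are both 393 bases long and differ at 9 bases (97.7% identical). The first 90 coding bases are shown, with the 6 bases that differ there in capitals.
Ly6c1: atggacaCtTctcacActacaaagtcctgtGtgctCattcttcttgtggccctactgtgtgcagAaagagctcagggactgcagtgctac
Ly6c2: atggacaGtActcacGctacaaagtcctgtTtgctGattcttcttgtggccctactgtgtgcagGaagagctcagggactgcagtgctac
Of the 31-base words in the Ly6c1 transcripts, 57.1% occur in another gene, and 48.0% occur in Ly6c2. For Ly6c2 the shares were 53.8% and 49.2%. For the others they were 22.1% for Ly6a, 9.55% for Ly6g, 0.755% for Ly6e and 0 for Ly6d. Reads from shared stretches cannot be given to one gene, so the split between Ly6c1 and Ly6c2 is uncertain in every library.

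The 6 genes lie on mouse chromosome 15 (GRCm38, GENCODE vM21). Ly6d spans 74762056 to 74763620, Ly6e 74955051 to 74959905, Ly6a 74994877 to 74998031, Ly6c1 75044018 to 75048830, Ly6c2 75108158 to 75111970 and Ly6g 75155240 to 75159126. Ly6e and Ly6g lie on the plus strand and the other 4 on the minus strand. Although their coding sequences are near-identical, the 250 bases before the starts of Ly6c1 and Ly6c2 (RefSeq, GRCm38.p6, minus strand, 5′ to 3′) are less alike. They are shown because the 2 genes were read in different T cells, with the longest stretch they share, 20 bases, in capitals.
Ly6c1, chr15:75048838-75049087: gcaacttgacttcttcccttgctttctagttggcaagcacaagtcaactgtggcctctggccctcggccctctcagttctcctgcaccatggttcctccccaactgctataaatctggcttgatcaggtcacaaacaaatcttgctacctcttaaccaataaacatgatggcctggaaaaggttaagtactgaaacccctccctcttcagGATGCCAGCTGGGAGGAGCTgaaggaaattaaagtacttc
Ly6c2, chr15:75111972-75112221: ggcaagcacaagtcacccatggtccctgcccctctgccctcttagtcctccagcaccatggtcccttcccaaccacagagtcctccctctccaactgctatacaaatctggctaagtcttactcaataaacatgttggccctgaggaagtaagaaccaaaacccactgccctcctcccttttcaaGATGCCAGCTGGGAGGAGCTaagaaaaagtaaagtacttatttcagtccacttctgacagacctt
The letters of the STAT5 motif, TTCNNNGAA, which read the same on both strands, were not found in the windows of Ly6c1, Ly6c2 or Ly6g. They were found in 7.02% of the 32851 promoters of that table. This says only that these letters are not in these windows.

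Total UMIs per library were 2621583 to 16101373 in LN, 36889328 to 47206322 in spleen and 16399123 to 55768078 in BM. Het replicate 3 and homo replicate 1 of LN stood apart, with median UMIs per cell of 368 and 395 against 874 to 3116 in the other 5, and they are called the shallow libraries below. Each cell was assigned to a gate by the most markers detected from lists that hold no member of the family. Gates kept all but 3.32 to 61.3% of cells in LN, with the highest shares left ungated in the shallow libraries, all but 2.65 to 3.44% in spleen and all but 48.1 to 69.7% in BM. Libraries of the same tissue shared 26 to 91 cell barcodes in LN, 7 to 18 in spleen and 80 to 476 in BM. In BM, replicate 1 was female and replicate 2 male in every genotype, by Xist and Ddx3y.

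A member's level is given as CPM, UMIs scaled to 1000000 UMIs of the same gate in the same library, so gates and libraries can be compared for 1 gene, and genes are not compared with each other. In WT mice the family divided the blood lineages (mapped by gate in the plot of WT levels). In WT spleen, Ly6g read 343 CPM in the Neutrophil gate and at most 0.251 in any other named gate. Ly6d read 3399 CPM in the plasmacytoid dendritic (pDC) gate of 12 cells, 1992 in the B gate and 315 in the Plasma gate, with 6.0 to 29.1 in every other named gate. The order of Ly6c2 was pDC (1056 CPM), Plasma (703), CD8 T (497), Monocyte (477), NK (311) and Neutrophil (271), and the B, Treg, dendritic (cDC) and CD4 T gates read 14.3 to 22.1. T cells with no clear CD4 or CD8 call read 159 and hold both kinds. The exact Poisson intervals of the CD8 T and Monocyte gates overlap in that order, as do those of the NK and Neutrophil gates. They cover counting error only.

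Ly6c1 took the opposite side of the T cell split. It read 110 CPM in CD4 T, 114 in Treg and 5.66 in CD8 T of WT spleen, while Ly6c2 read 14.3, 18.0 and 497 there. In WT LN the same split was seen, with Ly6c1 at 59.8 and 76.4 CPM in the CD4 T gate against 3.16 and 5.57 in the CD8 T gate. Ly6a in WT spleen fell in the order pDC (1125 CPM), B (218), CD4 T (190), Treg (156), Plasma (116), CD8 T (51.8), Monocyte (15.0), NK (8.39) and cDC (6.10), and no UMI was counted in the Neutrophil gate. The Poisson intervals of Treg and Plasma overlap in that order, as do those of Monocyte, NK and cDC. Ly6e was the broadest member, with 394 to 2592 CPM in the named gates of WT spleen.

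**Figure D1:**
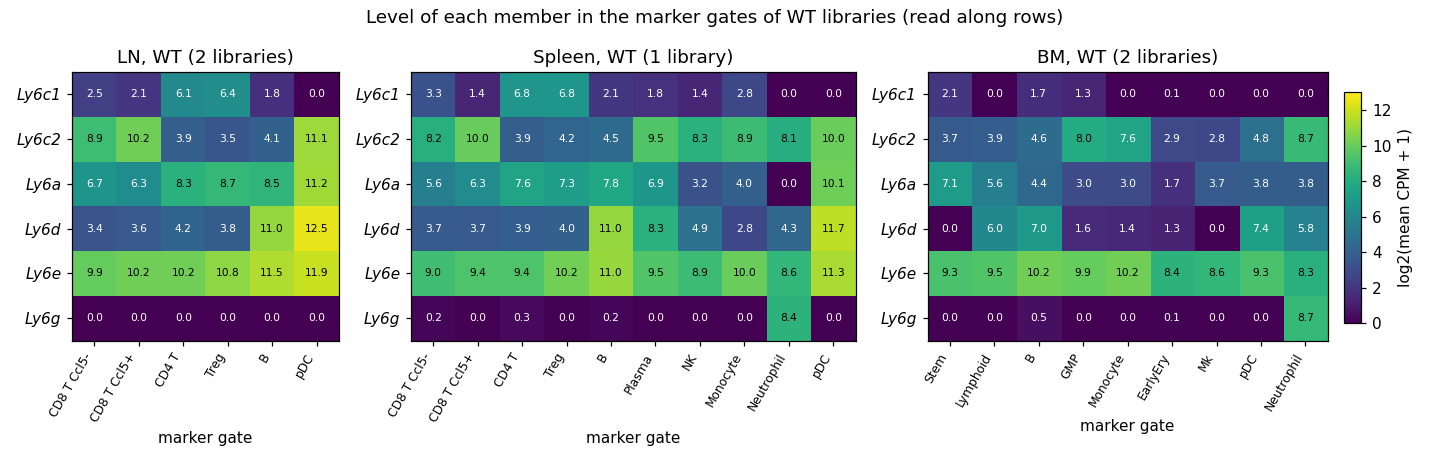
Levels of the 6 Ly6 genes in WT mice, by gate (columns) in LN, spleen and BM, as log2 of the mean CPM of the WT libraries + 1. Ly6g lies near 0 outside Neutrophil gates, Ly6d is highest in B and pDC gates, and Ly6c1 and Ly6c2 divide the CD4 T and CD8 T gates.

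In WT marrow, Ly6a was highest in the Stem gate, at 143 and 135 CPM. It read 58.2 and 36.7 in the Lymphoid gate of lymphoid-primed progenitors, 10.8 and 29.0 in B, 7.88 and 16.7 in the megakaryocyte gate, 11.7 and 2.02 in granulocyte-monocyte progenitors (GMP), 9.36 and 4.73 in Monocyte and 1.91 and 2.76 in the early erythroid gate. The last 5 overlapped in part between neighbours, while Stem and Lymphoid stood clear of them. Ly6c2 read 295 and 222 CPM in GMP and 183 and 194 in Monocyte, and at most 39.5 in any other marrow gate of at least 20 cells per library. Ly6d read 57.0 and 71.9 in Lymphoid and 97.0 and 161 in B, and Ly6c1 at most 3.85 in such gates.

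The LN comparison asks how 1 or 2 copies of Y665F change these levels within a cell type. The 6 genes in the CD8 T, CD4 T and B gates made 18 gene-by-gate combinations, 13 of which passed the filter on low counts, and Ly6g passed in none. Between homo and WT, 2 of the 13 were called by edgeR's quasi-likelihood test at an adjusted p under 0.05, both higher in homo, where 0.794% of all gene-by-gate tests were called. The median log2 fold change of the 13 was 0.55, against -0.01 over all tests. Between het and WT, 3 of 13 were called, 2 higher and 1 lower in het, where 0.582% of all tests were called. Between homo and het edgeR called 0 of 13, with 4 at an unadjusted p under 0.05 and 0 called by DESeq2, and the background was 0.0521%. Homo and het were compared with the same 2 WT libraries, so these counts are not independent. Without both shallow libraries the counts were 3 for homo, 4 for het and 0 between them. That leaves 1 homo library, and leaving out 1 of 2 libraries in LN or BM likewise leaves a group of 1. The spread is then taken from the other groups and the lone library is assumed to vary like them, so a call kept in such a setting is no replicate check of that group.

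Ly6c2, which encodes the Ly6C antigen that memory CD8 T cells carry, rose in CD8 T cells of both Y665F genotypes. In the LN CD8 T gate it read 623 and 489 CPM for WT, 1022, 943 and 977 for het, and 1291 and 1191 for homo. The 3 genotypes did not overlap, and het lay between the other two. The log2 fold change against WT was 1.20 ± 0.15 (SE) in homo (edgeR, adjusted p = 3.87e-05) and 0.87 ± 0.14 in het (edgeR, adjusted p = 0.00104), and homo exceeded het by 0.33 (edgeR, adjusted p = 0.676). The het call was lost without WT replicate 2 (0.66, edgeR, adjusted p = 0.264). The level of a gate does not tell more cells with Ly6c2 from more Ly6c2 per cell.

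The share of CD8 T cells with a Ly6c2 UMI was also read. After thinning each cell to 500 UMIs, a Ly6c2 UMI was held by 20.04 and 16.7% of CD8 T cells (WT), by 31.3, 31.8 and 39.7% (het) and by 43.5 and 35.8% (homo). The 5 Y665F libraries averaged 36.4 ± 5.22% (SD) and the WT libraries 18.4 ± 2.37%, without overlap (exact two-sided permutation test, p = 0.0952, the smallest that 2 against 5 libraries can give, and adjusted p = 0.397 over 25 such tests). Unthinned, the shares were 36.9 and 35.1% for WT, 69.01, 60.5 and 36.6% for het and 45.5 and 64.0% for homo. At the same 500 UMIs the CD4 T gate gave 0 to 0.387% in 5 libraries and 5.0% (1 of 20 cells) for homo replicate 1. The B gate gave 0.409 to 1.39% in 5 libraries and 13.5 and 11.5% in the shallow ones, from 89 and 78 cells. Thinning left out 3435 of 39010 entries for being shallower, over all LN gates and with CD8 T cells counted again in their Ccl5 subsets. In the shallow libraries the B gate held 641 and 564 cells before thinning, and the CD4 T gate of homo replicate 1 held 54. The thinned shares of these libraries thus come from their deeper cells.

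Within CD8 T cells, Ly6c2 differed with Ccl5, a chemokine gene that memory and effector CD8 T cells transcribe. Ccl5+ cells, with at least 1 Ccl5 UMI, made up 7.97 and 7.33% of the WT CD8 T gate, 36.4, 27.8 and 33.3% for het, and 38.7 and 49.3% for homo. These shares depend on depth, and cells were not thinned for them. Ccl5 was also called higher in the LN B gate, by 4.40 in homo (edgeR, adjusted p = 0.000415, where 0.0326% of genes were called) and 2.69 in het (edgeR, adjusted p = 0.0165). The part of Ccl5 RNA from other cells in these subsets was not tested. In Ccl5+ cells Ly6c2 read 1200.0 and 1131 CPM for WT, 1575, 1482 and 1582 for het, and 1566 and 1576 for homo. In Ccl5- cells it read 555 and 425 for WT, 632, 683 and 622 for het, and 1085 and 727 for homo. Ccl5+ cells were higher than Ccl5- cells in 7 of 7 libraries, and the genotypes did not overlap within either subset for mutant against WT.

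The fold changes within the subsets were smaller than over all CD8 T cells. In Ccl5+ cells the log2 fold change was 0.45 in homo (edgeR, adjusted p = 0.554) and 0.43 in het (edgeR, adjusted p = 0.887), neither called. In Ccl5- cells it was 0.85 ± 0.17 in homo (edgeR, adjusted p = 0.0207, where 0.188% of genes were called) and 0.45 in het (edgeR, adjusted p = 0.497). That homo call was lost without WT replicate 2 (0.63, edgeR, adjusted p = 0.315), without homo replicate 1 (0.61, adjusted p = 0.187) and without het replicate 2 (adjusted p = 0.0924). It was also lost in DESeq2 (adjusted p = 0.0913), with the replicate block (adjusted p = 0.0852) and with at least 500 genes per cell (adjusted p = 0.142). The homo change in Ccl5+ cells minus that in Ccl5- cells was -0.34 (edgeR, adjusted p = 0.840). Of 8 memory CD8 T genes, 5 were called higher in the whole CD8 T gate of homo and 5 in that of het, where 1.7% and 0.951% of all genes were called, and of 6 naive genes edgeR called 0 in either (1 and 0 at an unadjusted p under 0.05).

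Ly6c1 moved in the other T cell lineage. In the LN CD4 T gate it read 59.8 and 76.4 CPM for WT, 165, 136 and 253 for het, and 221 and 246 for homo. Every Y665F library lay above both WT libraries. These levels rest on 22 and 84 UMIs in WT, 426, 103 and 7 for het, and 6 and 86 for homo, since the gate held only 54 cells in each shallow library. The log2 fold change was 1.80 ± 0.26 in homo (edgeR, adjusted p = 2.39e-08) and 1.21 ± 0.19 in het (edgeR, adjusted p = 5.73e-07), with 0.59 between homo and het (edgeR, adjusted p = 0.516). The p-values of this gate rest on a spread pooled over genes, so their size does not measure how Ly6c1 varied between libraries.

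The Ly6c1 calls did not hold in every setting. DESeq2 gave an adjusted p of 0.529 for homo and 1.0 for het. Without homo replicate 2 the homo value was 1.20 (edgeR, adjusted p = 0.766), and without WT replicate 2 the het value was 1.42 (adjusted p = 0.0588). Regulatory T cells read 81.2 and 90.8 CPM for WT, 147, 120 and 0 for het, and 0 and 126 for homo, where the zeros are the shallow libraries and the gate was too small to test. In CD8 T cells Ly6c1 stayed between 3.0 and 10.5 CPM (homo against WT 0.86, edgeR, adjusted p = 0.481).

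In the CD4 T and B gates of LN Ly6c2 read lower than in CD8 T cells. In the CD4 T gate it read 16.3 and 11.8 CPM for WT, 7.37, 10.6 and 0 for het, and 36.8 and 2.86 for homo, and did not pass the filter on low counts. In the B gate it read 16.0 and 15.4 for WT, 30.9, 39.8 and 118 for het, and 117 and 53.0 for homo, every Y665F library above WT. Neither B change was called (homo 2.16, edgeR, adjusted p = 0.161; het 1.42, edgeR, adjusted p = 0.128), although homo was called with the replicate block (adjusted p = 0.0242). Both CD8 markers were detected in the B gate of all 7 libraries, with a summed level of 32.0 and 57.0 CPM for WT, 53.9, 42.0 and 127 for het, and 141 and 41.2 for homo, highest in the shallow libraries. Their part in the Ly6c2 values of the B gate was not tested.

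**Figure D2:**
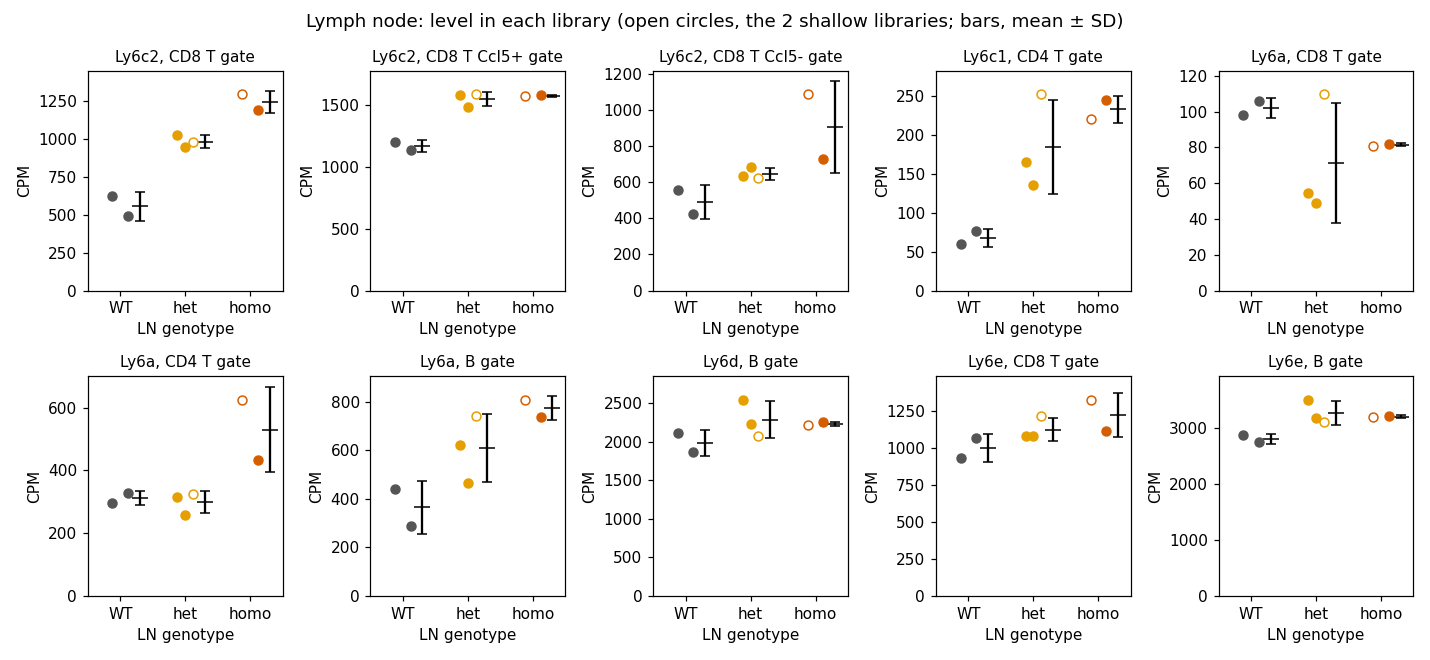
Levels of Ly6 genes in LN gates by library, in CPM, with 1 point per library (open for the 2 shallow libraries) and bars of the mean ± SD. Ly6c2 in CD8 T cells rises from 489 and 623 CPM in WT to 1191 and 1291 for homo, with het between.

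In spleen, with 1 library per genotype, values carry exact Poisson 95% intervals for counting error only and no test was possible. Genes with at least 20 CPM in 1 of the compared libraries were read as past 2-fold or not in 8 gates. For Y665F against WT, 7 of 26 member-by-gate combinations were past 2-fold, 5 of them higher, where 11.7% of all gene-by-gate combinations were. For Y665H it was 5 of 28, 4 of them higher, against 4.07%. Without barcodes above the 98th percentile of UMIs, it was 9 of 28 for Y665F, 7 higher, against 14.6%, and 5 of 28 for Y665H, 3 higher, against 8.67%. Both mutants were set against the same WT library. The largest Y665H ratio counted was that of Ly6d in the Monocyte gate, 4.10, from 6.0 to 24.6 CPM. It rests on 2 WT UMIs in 35 cells and 36 UMIs for Y665H, with overlapping intervals.

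Ly6c2 in spleen CD8 T cells read 497 CPM (485 to 509) for WT, 459 (446 to 472) for Y665H and 865 (851 to 880) for Y665F. Y665F stood above WT and Y665H slightly below it, with intervals apart. Within Ccl5+ cells, taken at 3 or more UMIs here, the values were 1002, 898 and 1071, and within Ccl5- cells, with 0 UMIs, 296, 297 and 392. The 296, 206 and 250 cells with 1 or 2 UMIs were in neither subset. Ccl5+ cells made up 20.1% of the WT gate, 19.6% for Y665H and 63.4% for Y665F.

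The largest spleen ratios of Ly6c2 were in myeloid cells. The Neutrophil gate read 271 CPM (217 to 334) for WT, 456 (430 to 483) for Y665H and 1085 (1047 to 1123) for Y665F, a ratio of 4.01 for Y665F and 1.68 for Y665H. The Monocyte gate, of only 35 cells in WT and in Y665F, read 477 (406 to 557), 1024 (973 to 1078) and 1483 (1380 to 1592), ratios of 3.11 and 2.15 for Y665F and Y665H. In both gates the order was WT, Y665H, Y665F with intervals apart. Mean UMIs per cell rose with it, at 3491, 4298 and 10773 in the Neutrophil gate and 9525, 11344 and 14660 in the Monocyte gate, and their part in the ratios of these gates was not tested. All 10 neutrophil markers were detected in the Monocyte gate of both mutants and 5 in that of WT, where Ngp, Ltf, Lcn2, Retnlg and Cxcr2 were at 0, and their summed level was 92.99 CPM for WT, 905 for Y665H and 2814 for Y665F. The number detected depends on the UMIs in the gate, which were 333358 for WT, 1463341 for Y665H and 513086 for Y665F. The part of these markers in the Monocyte values was not tested.

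In NK cells Y665H was the low one. Ly6c2 read 311 CPM (286 to 338) for WT, 134 (119 to 151) for Y665H and 301 (268 to 337) for Y665F, a ratio of 0.432 for Y665H. In CD4 T cells it read 14.3 (11.8 to 17.2), 16.9 (14.3 to 19.8) and 38.7 (33.4 to 44.7), a ratio of 2.71 for Y665F. Neutrophil markers in the CD8 T, CD4 T and B gates summed to 27.0 to 78.4 CPM for WT, 523 to 839 for Y665H and 333 to 381 for Y665F, with at least 9 of 10 detected in each gate. Their part in these values was not tested. Ly6c1 in CD4 T cells read 110 (102 to 117), 68.4 (63.2 to 74.0) and 137 (126 to 148), lowest in Y665H and highest in Y665F, within 2-fold of WT.

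**Figure D3:**
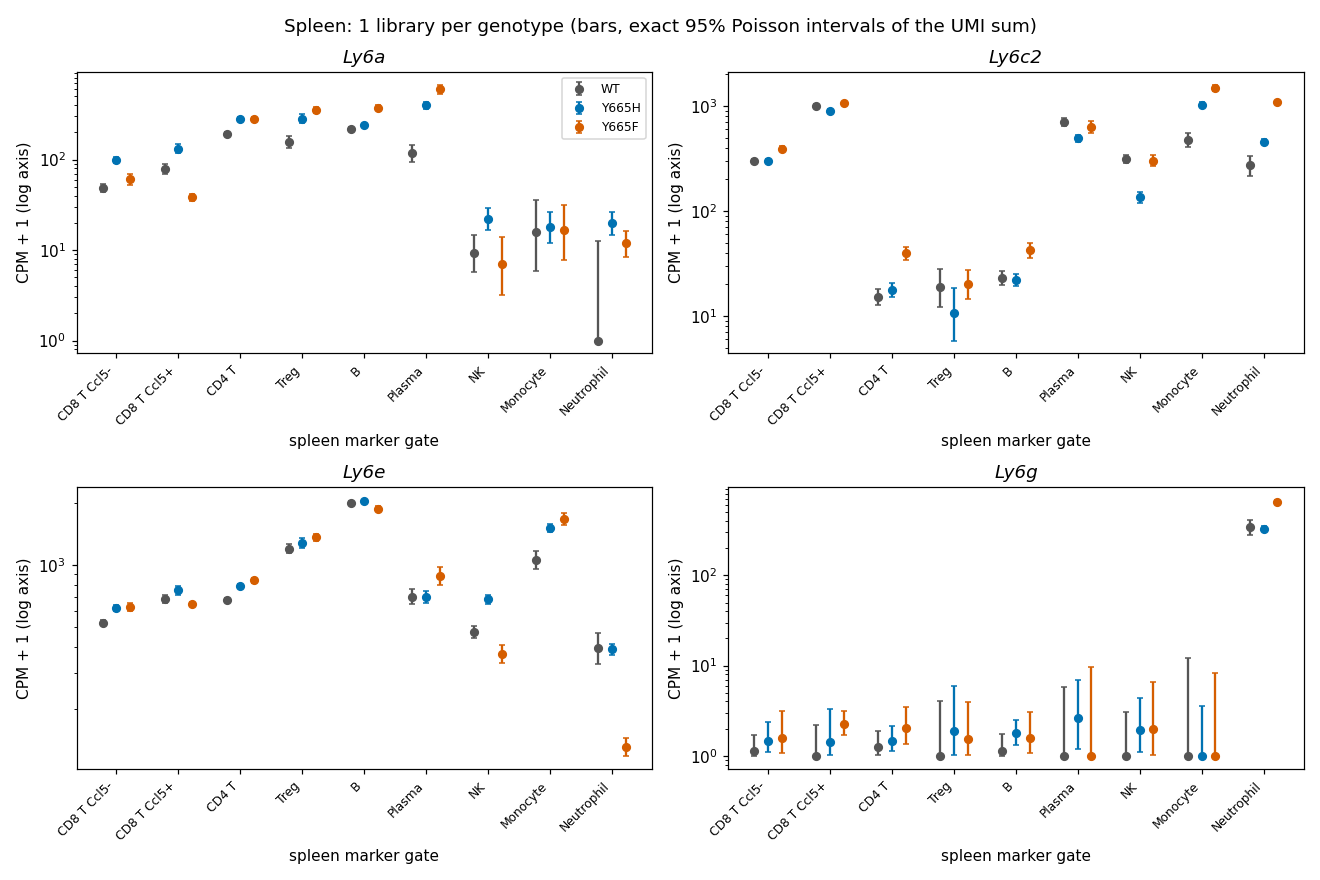
Levels of Ly6 genes in spleen gates, as CPM + 1 on a log axis, for the single WT, Y665H and Y665F libraries, with exact Poisson 95% intervals as bars. Ly6c2 in Neutrophil and Monocyte gates rises from WT to Y665H to Y665F, and Ly6g in neutrophils is highest in Y665F.

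The BM comparison asks the same of progenitors, with Y665H and Y665F each against WT. The 6 genes in 7 gates made 42 combinations, of which 22 passed the filter on low counts. Between Y665F and WT, 8 of 22 were called by edgeR, 7 of them higher in Y665F, where 14.5% of all gene-by-gate tests were called. Between Y665F and Y665H, 5 of 22 were called, all 5 higher in Y665F, where 20.9% of all tests were called. Between Y665H and WT edgeR called 0 of 22 (3 at an unadjusted p under 0.05, and 0 called by DESeq2), and 0% of all tests. The 2 comparisons with WT share its 2 libraries, and the 2 with Y665F share those. The replicate number stands for sex in BM, and with it as a block no call was lost, and 10 were made against WT and 8 against Y665H. The calls added against WT were Ly6a in B (given below) and Ly6d in the early erythroid gate (1.18, edgeR, adjusted p = 0.0479, against 0.94 and 0.343 without the block), where Ly6d read 0.239 and 2.57 CPM for WT and 1.59 and 5.70 for Y665F. The calls added against Y665H were Ly6c2 in GMP (-0.58, edgeR, adjusted p = 0.0456) and early erythroid (0.90, adjusted p = 0.0104) and Ly6d in GMP (1.23, adjusted p = 0.0438).

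Ly6a, the stem cell antigen, was called higher in Y665F in 4 gates, GMP, Monocyte, early erythroid and Lymphoid, where WT levels were below those of the Stem gate. It was called there against WT beside 27.6, 4.5, 32.3 and 8.6% of all genes, in that order of gates. Ly6a also read higher outside these gates, among ungated cells. Ungated cells read 107.7 and 62.6 CPM for Y665F and at most 37.8 in each WT and Y665H library. They held 2665 of 4466 and 1801 of 2887 Ly6a UMIs for Y665F. For WT it was 137 of 284 and 355 of 493, and for Y665H 360 of 620 and 444 of 623. The basophil and mast cell gate, too small to test, read 44.8 and 63.6 CPM for Y665F, from 19 and 20 UMIs. Ly6a was not counted there in WT or Y665H, from 18 to 40 cells. Taking 3 UMIs as the limit that a count of 0 allows, these zeros reach 82.1 and 55.7 CPM for WT and 32.5 and 96.7 for Y665H. Most of them thus allow levels like those of Y665F. In GMP it read 11.7 and 2.02 CPM for WT, 4.48 and 7.09 for Y665H, and 37.8 and 39.7 for Y665F, from 16 and 5, 20 and 16, and 314 and 270 UMIs. WT and Y665H overlapped, and both Y665F libraries stood above all 4. The log2 fold change was 2.60 ± 0.39 against WT (edgeR, adjusted p = 0.000141) and 2.58 against Y665H (edgeR, adjusted p = 5.62e-05). After thinning to 500 UMIs, 0.46 and 0.16% of WT, 0.50 and 0.58% of Y665H and 2.38 and 1.58% of Y665F GMP held a Ly6a UMI, against 4.15 and 0.64%, 2.35 and 2.16%, and 15.3 and 12.4% unthinned.

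The Monocyte gate behaved alike, with 9.36 and 4.73 CPM for WT, 8.90 and 16.3 for Y665H, and 71.3 and 56.7 for Y665F. The log2 fold change was 3.28 ± 0.47 against WT (edgeR, adjusted p = 7.99e-05) and 2.30 against Y665H (edgeR, adjusted p = 0.000807). In the early erythroid gate Ly6a read 1.91 and 2.76 CPM for WT, 2.62 and 6.64 for Y665H, and 12.3 and 28.5 for Y665F. The Y665F libraries were again highest, by 2.84 ± 0.45 against WT (edgeR, adjusted p = 0.000505) and 1.85 against Y665H (edgeR, adjusted p = 0.00268), though at low levels.

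In the Lymphoid gate Ly6a read 58.2 and 36.7 CPM for WT, 69.9 and 83.7 for Y665H, and 200.2 and 79.0 for Y665F. Y665F lay above WT (1.62 ± 0.35, edgeR, adjusted p = 0.00349) but overlapped Y665H (0.81, edgeR, adjusted p = 0.0967). Y665F replicate 1 decided this: without it the change against WT was 0.73 (edgeR, adjusted p = 0.194) and that against Y665H -0.088. In the Stem gate itself Ly6a read 143 and 135 for WT, 137 and 176 for Y665H, and 209 and 104 for Y665F, so that the genotypes overlapped (0.30, edgeR, adjusted p = 0.709).

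The difference between these gates was tested directly, with p-values that rest on a spread pooled over genes. GMP and Stem were paired after member values were seen, and the adjustment does not cover that choice. The Y665F change of Ly6a in GMP exceeded that in Stem by 2.35 on the log2 scale (edgeR with library as a block, adjusted p = 1.46e-07, where 1.38% of genes were called). It was called without each library in turn, between 1.43 without WT replicate 2 (adjusted p = 0.0254) and 3.79 without WT replicate 1 (adjusted p = 1.62e-08). In the B gate Ly6a read 10.8 and 29.0 CPM for WT, 76.0 and 37.5 for Y665H, and 61.0 and 62.8 for Y665F, above WT in both mutants but not called (Y665F 1.31, edgeR, adjusted p = 0.123; Y665H 1.37, edgeR, adjusted p = 0.994). Y665F was called there with the replicate block (1.30, edgeR, adjusted p = 0.0433). In the megakaryocyte gate it read 7.88 and 16.7, 6.20 and 22.7, and 25.5 and 41.9, below the filter.

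Neutrophil and stem cell markers moved with these gates. The 10 neutrophil markers summed to 41.6 and 79.6 CPM in GMP of WT, 56.7 and 91.3 for Y665H and 447 and 555 for Y665F, and to 3.74 and 11.0, 11.8 and 32.3, and 167 and 274 in Monocyte. In the early erythroid gate they summed to 6.10 and 6.85, 7.25 and 16.0, and 85.2 and 113. All 10 were detected in these gates in Y665F, against 2 to 9 for WT, where S100a9, Ltf, Lcn2, Retnlg and Cebpe were at 0 in the Monocyte gate of both libraries. The number detected depends on the UMIs in a gate, which were higher for Y665F than for WT in GMP and Monocyte but not in the early erythroid gate. Stem markers in GMP summed to 109 and 170 CPM for WT, 102 and 122 for Y665H and 219 and 272 for Y665F. Their part in the Ly6a values was not tested. The marrow Neutrophil gate itself read 36.2 and 60.9 CPM of Ly6a for Y665F, from 24 and 37 UMIs and beside 37.8 and 39.7 in GMP. It read 0 and 26.5 CPM for WT and 0 and 44.6 for Y665H, from 0 or 1 UMI in 2 to 16 cells per library. Y665H thus overlapped Y665F, and so few cells show no difference from WT either.

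**Figure D4:**
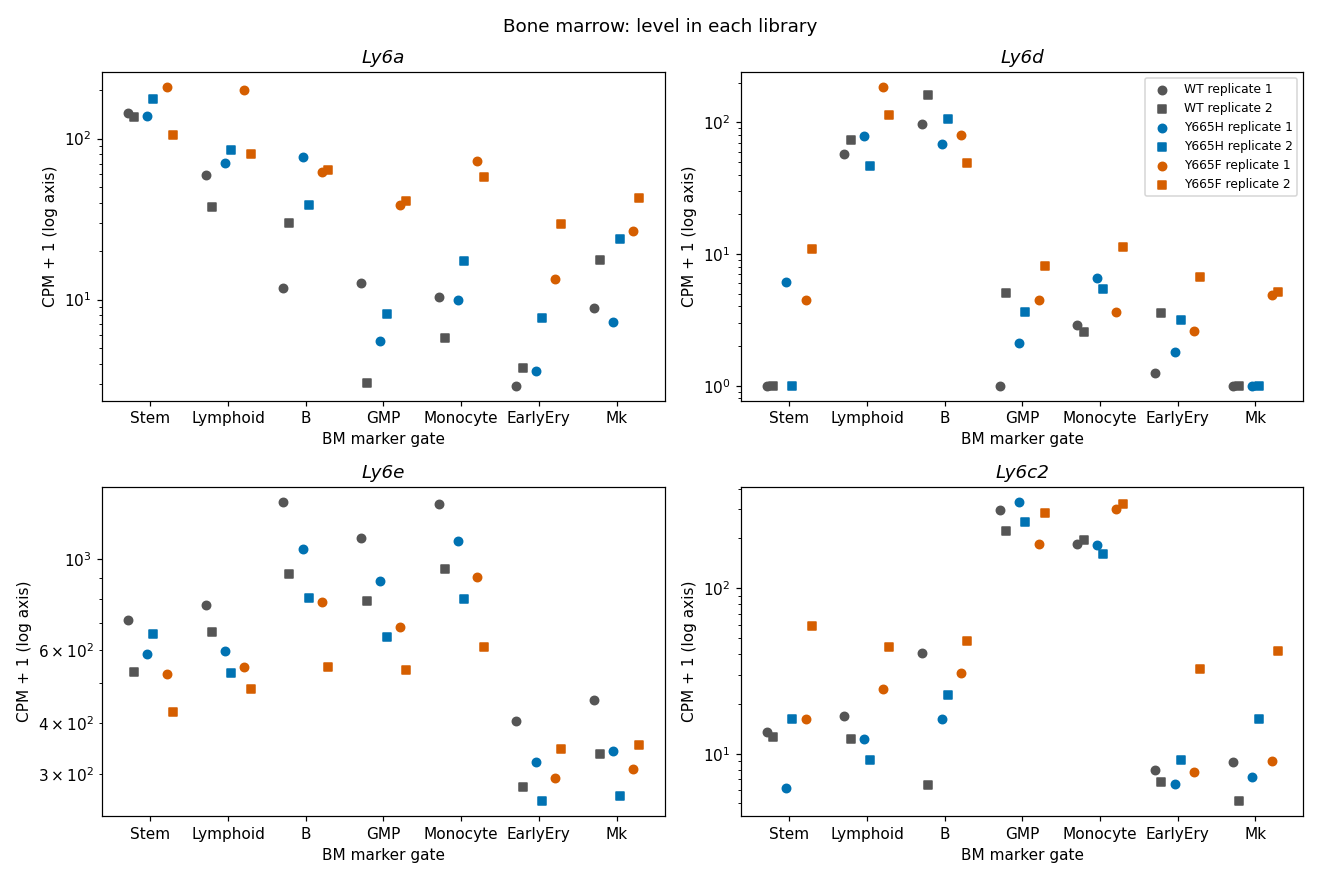
Levels of Ly6 genes in BM gates by library, as CPM + 1 on a log axis, with 1 point per library (circles replicate 1, squares replicate 2). Ly6a lies higher in Y665F in GMP, Monocyte and early erythroid gates while the Stem gate overlaps between genotypes.

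In the marrow gates where Ly6c2 is high, GMP and Monocyte, no change against WT was called. In GMP it read 295 and 222 CPM for WT, 331 and 251 for Y665H, and 184 and 282 for Y665F, overlapping (Y665F against WT -0.30, edgeR, adjusted p = 0.388). In Monocyte it read 183 and 194, 180 and 160, and 298 and 322, with Y665F above the other 4 libraries but not called (0.79, edgeR, adjusted p = 0.164).

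Where it is low, 2 calls did not hold in every setting, in gates where 8.6% (Lymphoid) and 32.3% (early erythroid) of all genes were called against WT. In the Lymphoid gate Ly6c2 read 15.8 and 11.3 CPM for WT, 11.2 and 8.10 for Y665H, and 23.4 and 42.9 for Y665F, a change of 1.31 ± 0.41 (edgeR, adjusted p = 0.0395) that was lost without Y665F replicate 2 (0.88, adjusted p = 0.487), WT replicate 1 (adjusted p = 0.100) or WT replicate 2 (adjusted p = 0.152), and with a lead of 2 markers (adjusted p = 0.225). Against Y665H the Lymphoid change was 1.56 (edgeR, adjusted p = 0.0166), lost without Y665F replicate 2 (1.13, adjusted p = 0.233), Y665H replicate 1 (adjusted p = 0.190) or Y665H replicate 2 (adjusted p = 0.0518). In the early erythroid gate it read 6.94 and 5.71, 5.57 and 8.17, and 6.77 and 31.7. Only Y665F replicate 2 was high there, and the change of 1.31 ± 0.45 (edgeR, adjusted p = 0.0340) became -0.014 without it. That library was also the highest in the Stem gate, at 57.9 CPM against 5.19 to 15.3 in the other 5. The Y665F change in GMP minus that in Stem was -1.87 (edgeR, adjusted p = 0.0156), and it was lost without Y665F replicate 2 (-1.08, adjusted p = 0.950), WT replicate 1 (adjusted p = 0.311) or Y665H replicate 2 (adjusted p = 0.225).

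In lymphocytes, Ly6a changed by lineage. In the LN B gate it read 442 and 289 CPM for WT, 623, 464 and 741 for het, and 810 and 739 for homo. Every Y665F library lay above both WT libraries, though het replicate 2 exceeded WT replicate 1 by little. The change was not called (homo 1.06 ± 0.21, edgeR, adjusted p = 0.116; het 0.69, edgeR, adjusted p = 0.186), but homo was called in DESeq2 (adjusted p = 0.0155), with the replicate block (adjusted p = 0.0235) and without WT replicate 1 (1.44, edgeR, adjusted p = 0.000614).

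In the CD8 T gate Ly6a read 97.96 and 106 CPM for WT, 54.4, 49.2 and 110 for het, and 81.0 and 82.2 for homo. Both deep het libraries were lowest and the shallow one was highest. The het change was -0.82 ± 0.15 (edgeR, adjusted p = 0.00364) and the homo change -0.26 (edgeR, adjusted p = 0.574). The het call was lost in DESeq2 (adjusted p = 1.0) and without WT replicate 2 (adjusted p = 0.256), het replicate 1 (adjusted p = 0.212) or het replicate 2 (adjusted p = 0.219). In CD4 T cells Ly6a read 296 and 328 CPM for WT, 315, 258 and 325 for het, and 626 and 435 for homo, with homo above the other 5 libraries but not called (0.55, edgeR, adjusted p = 0.333).

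The gates differed when tested against each other, with p-values that rest on a spread pooled over genes and not on that of Ly6a alone. CD8 T and B were paired after member values were seen, and the adjustment does not cover that choice. The change of Ly6a in CD8 T cells minus that in B cells was -1.43 in homo (edgeR with library as a block, adjusted p = 1.09e-14, where 0.835% of genes were called) and -1.58 in het (edgeR, adjusted p = 9.20e-30, where 1.72% were called). Both were called without each library in turn, weakest without WT replicate 2, at -0.96 (adjusted p = 0.0059) and -1.12 (adjusted p = 7.08e-06). Between CD8 T and CD4 T cells the difference was -0.84 in het (edgeR, adjusted p = 1.52e-05, where 0.208% of genes were called) and -0.79 in homo (edgeR, adjusted p = 0.0921). The het difference was lost without WT replicate 2 (adjusted p = 0.754) or het replicate 1 (adjusted p = 0.572).

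In spleen Ly6a was past 2-fold above WT in antibody-secreting cells of both mutants, in Treg of Y665F and in NK cells of Y665H, among the gates and genes that met the rule. In the Plasma gate it read 116 CPM (93.8 to 143) for WT, 398 (363 to 435) for Y665H and 595 (524 to 673) for Y665F, ratios of 3.42 and 5.11, from 41, 66 and 21 cells. In Treg it read 156 (134 to 179), 283 (253 to 315) and 355 (329 to 383), ratios of 1.82 and 2.28. The order in both was WT, Y665H, Y665F with intervals apart.

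The pDC gate, of 12, 16 and 3 cells, had the highest levels, at 1125 CPM (940.2 to 1334) for WT, 914 (767 to 1081) for Y665H and 1341 (949 to 1841) for Y665F, with overlapping intervals for WT against each mutant. The B gate gave 218 CPM (207 to 229) for WT, 240 (231 to 250) for Y665H and 375 (355 to 396) for Y665F, and the CD4 T gate 190, 280 and 278. CD8 T cells stood out for Y665H, at 103 (97.4 to 110) against 51.8 (48.0 to 55.9) for WT and 44.4 (41.2 to 47.7) for Y665F, a ratio of 2.00. NK cells followed at a lower level, with 8.39 for WT, 21.3 for Y665H and 5.93 for Y665F, a ratio of 2.54 for Y665H.

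Since interferon induces Ly6a and Ly6e, 16 interferon-induced genes, 15 of them in the matrices, were read beside them. In BM, Y665F against WT called 5 of the 14 tested higher in GMP, among them Zbp1 (1.81), Ifi44 (1.74) and Rtp4 (1.0001), where 27.6% of all genes were called. In the early erythroid gate 7 of 14 were called higher, among them Ifi44 (2.26), Ifit1 (1.76) and Ifi27l2a (1.66), and Irf7 was called lower (-1.19), where 32.3% of genes were called. In Monocyte 1 of 8 was called, Isg15 (1.78), where 4.5% of genes were called, and in Stem 0 of 10 by edgeR (2 at an unadjusted p under 0.05), where 1.33% were. In the LN B gate edgeR called 0 of 14 in homo (6 at an unadjusted p under 0.05), where 0.0326% of genes were called. Irf7 was the one called in CD8 T cells (0.68) and in CD4 T cells (1.13) of homo, where 1.7% and 0.541% of genes were called. In the Ccl5+ subset of homo CD8 T cells, Bst2 (1.06) and Ifi27l2a (1.15) were called higher. In the BM Lymphoid gate, Y665F against WT called Ifi27l2a higher (1.01) and Irf7 lower (-1.51), where 8.6% of genes were called. In the megakaryocyte gate Isg15 was called higher (1.34). For that gate and the Ccl5+ subset the share of all genes called is not given, so these calls stand without a background.

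The summed level of the 15 genes moved with some of the member values. In the BM Lymphoid gate it was 760 and 644 CPM for WT, 878 and 691 for Y665H, and 1171 and 722 for Y665F, highest in Y665F replicate 1, the library that decided the Ly6a call there. In Monocyte it was 763 and 528, 729 and 495, and 1155 and 784, and in GMP 512 and 286, 432 and 324, and 583 and 508. In the spleen Neutrophil gate it was 2134 for WT, 2401 for Y665H and 1058 for Y665F, lowest in Y665F as was Ly6e. In spleen Plasma it did not follow Ly6a, at 1591, 1176 and 1843, lowest in Y665H, where Ly6a was above WT. In spleen CD8 T cells it was 1093, 1253 and 1011, in the order of Ly6a, which had a ratio of 2.00 in Y665H. In spleen B cells it was 929, 966 and 1244, also in the order of Ly6a. In spleen Treg it was 2099, 2706 and 2589, above WT in both mutants as was Ly6a. In LN B cells it was 1494 and 759 for WT, 1602, 1426 and 1609 for het, and 1419 and 1945 for homo. The part of the interferon-induced genes in the member values was not tested.

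In LN and spleen most Ly6d UMIs lay in the B gate. In LN it held 89.8 to 93.5% of them, and 60.5 and 65.5% in the shallow libraries, where more cells were ungated, and in spleen 91.5 to 92.8%. In BM the B gate held 7.80 to 35.2% and the Lymphoid gate 6.91 to 52.8%, with many of the rest ungated. The pDC gate of BM, of 7 to 41 cells, read 0 and 332 CPM for WT, 111 and 834 for Y665H, and 901 and 332 for Y665F. Its LN B level was 2106 and 1866 CPM for WT, 2546, 2227 and 2074 for het, and 2214 and 2250 for homo. Het overlapped WT and homo lay just above it, and the homo change was 0.15 (edgeR, adjusted p = 0.868). Spleen B cells read 1992 CPM for WT, 2005 for Y665H and 2085 for Y665F.

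In marrow Ly6d was called higher in Y665F in the Lymphoid gate, where 8.6% of all genes were called against WT. It was not called in the B gate. In the Lymphoid gate it read 57.0 and 71.9 CPM for WT, 78.3 and 45.9 for Y665H, and 185 and 112 for Y665F, with Y665F above the other 4. The change was 1.26 ± 0.31 against WT (edgeR, adjusted p = 0.00951) and 1.08 against Y665H (edgeR, adjusted p = 0.0177), the latter lost in DESeq2 (adjusted p = 0.0567) and without Y665F replicate 1 (0.61, adjusted p = 0.239), Y665H replicate 1 (adjusted p = 0.0648) or Y665H replicate 2 (adjusted p = 0.149). The call against WT was lost without Y665F replicate 1 (0.79, adjusted p = 0.131) or WT replicate 1 (adjusted p = 0.0896), and with a lead of 2 markers (adjusted p = 0.0633). In the B gate Ly6d read 97.0 and 161 for WT, 67.3 and 105 for Y665H, and 79.4 and 48.2 for Y665F, with both Y665F libraries below WT (-1.10, edgeR, adjusted p = 0.164). The call appeared without WT replicate 1 (-1.51, adjusted p = 0.0246).

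The difference between the gates was larger than either change. B and Lymphoid were paired after member values were seen, and the adjustment does not cover that choice. The Y665F change of Ly6d in B minus that in Lymphoid was -2.28 on the log2 scale (edgeR with library as a block, adjusted p = 0.000159), 1 of 3 genes called among 9164 (0.0327%). It was called without each library in turn, between -1.83 (adjusted p = 0.00912) and -2.53 (adjusted p = 6.03e-10). The change of the B gate in BM (Y665F) minus that in LN (homo) was -1.25 for Ly6d (edgeR, adjusted p = 0.284), and edgeR called 0 members in that test, with 2 at an unadjusted p under 0.05. Ly6d was called in it without BM WT replicate 1 (-1.64, adjusted p = 0.0357). B lineage markers in the BM B gate summed to 10805 and 6754 CPM for WT, 7949 and 6208 for Y665H and 7917 and 2655 for Y665F, and neutrophil markers there to 14.4 and 88.9, 36.9 and 14.4, and 481 and 763. Their part in the Ly6d values was not tested.

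In the NK and T cell gates of spleen Ly6d was low, and lowest in Y665F. NK cells read 29.1 CPM (21.7 to 38.1) for WT, 43.5 for Y665H and 0.988 (0.025 to 5.5) for Y665F, where 1 UMI was counted. CD4 T cells read 13.7, 19.1 and 3.77. B lineage markers in the NK gate summed to 166, 194 and 25.7 CPM in the same order, and their part in the Ly6d values was not tested. The pDC gate read far higher, at 3399 CPM for WT, 2982 for Y665H and 4694 for Y665F, from 12, 16 and 3 cells.

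Ly6e was not called in any LN gate by edgeR or DESeq2, with 1 of its 9 edgeR tests in the CD8 T, CD4 T and B gates at an unadjusted p under 0.05. It read 2881 and 2751 CPM in WT B cells, 3515, 3188 and 3120 for het, and 3195 and 3227 for homo, each Y665F library above WT by a small step (homo 0.17, edgeR, adjusted p = 0.815). In CD8 T cells it read 934 and 1068, 1083, 1080 and 1216, and 1331 and 1120 (homo 0.32, edgeR, adjusted p = 0.289). In CD4 T cells it read 1050 and 1295, 1409, 1248 and 2058, and 1583 and 1421.

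In marrow Ly6e was called in 1 gate, GMP, where it was lower in Y665F and where 27.6% of all genes were called against WT. GMP read 1123 and 791 CPM for WT, 886 and 647 for Y665H, and 681 and 537 for Y665F, a change of -0.77 ± 0.26 against WT (edgeR, adjusted p = 0.0298). The call was lost without Y665F replicate 2 (-0.55, adjusted p = 0.287), WT replicate 1 (adjusted p = 0.115), Y665H replicate 1 (adjusted p = 0.0535) or Y665H replicate 2 (adjusted p = 0.0553). The B gate read 1375 and 918, 1058 and 804, and 787 and 546 (-0.72, edgeR, adjusted p = 0.348). Monocyte read 1364 and 945, 1104 and 801, and 905 and 610, and Lymphoid 773 and 663, 598 and 529, and 544 and 483. In these 4 gates replicate 2 (male) read below replicate 1 (female) in each genotype, and Y665F lay below WT. The Stem gate read 712 and 531, 586 and 658, and 525 and 423, where Y665F also lay below WT (-0.28, edgeR, adjusted p = 0.706) and the order of the replicates turned in Y665H. In the early erythroid gate Y665F overlapped WT, at 404 and 279, 320 and 257, and 293 and 344, as it did in the megakaryocyte gate, at 453 and 334, 341 and 264, and 308 and 352.

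In spleen neutrophils Ly6e read 394 CPM (328 to 469) for WT, 388 (364 to 413) for Y665H and 130 (117 to 144) for Y665F. Y665F was the only one apart, at a ratio of 0.330, and it was also the library with more UMIs per cell in this gate, as given for Ly6c2. Spleen monocytes went the other way, at 1059, 1511 and 1682.

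In spleen and LN Ly6g was read almost wholly in neutrophils. In spleen, the Neutrophil gate held 109 of 115 Ly6g UMIs in WT, 820 of 856 for Y665H and 1926 of 1959 in Y665F (94.8, 95.8 and 98.3%). The level in that gate was 343 CPM (282 to 414) for WT, 328 (306 to 352) for Y665H and 655 (626 to 685) for Y665F, a ratio of 1.91 for Y665F, from 91, 581 and 273 cells. WT and Y665H overlapped, and Y665F, with its higher UMIs per cell in this gate, stood apart.

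In marrow the Neutrophil gate held 2 and 16 cells in WT, 15 and 10 for Y665H and 218 and 200 for Y665F, so it was not tested. Ly6g read 640 and 186 CPM, 252 and 89.2, and 294 and 95.5 there, from 1 and 7, 6 and 2, and 195 and 58 UMIs, and the genotypes overlapped. Over all marrow cells there were 2 and 10, 6 and 2, and 204 and 78 Ly6g UMIs, so that the gate held 58 of 78 in Y665F replicate 2, where 11 were ungated. In LN all Ly6g UMIs, 1 to 7 in each of 6 libraries, lay in the Neutrophil gate, and homo replicate 2 held 0 (taking 3 UMIs as the limit that a count of 0 allows, up to 0.526 CPM over all its cells).

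**Figure D5:**
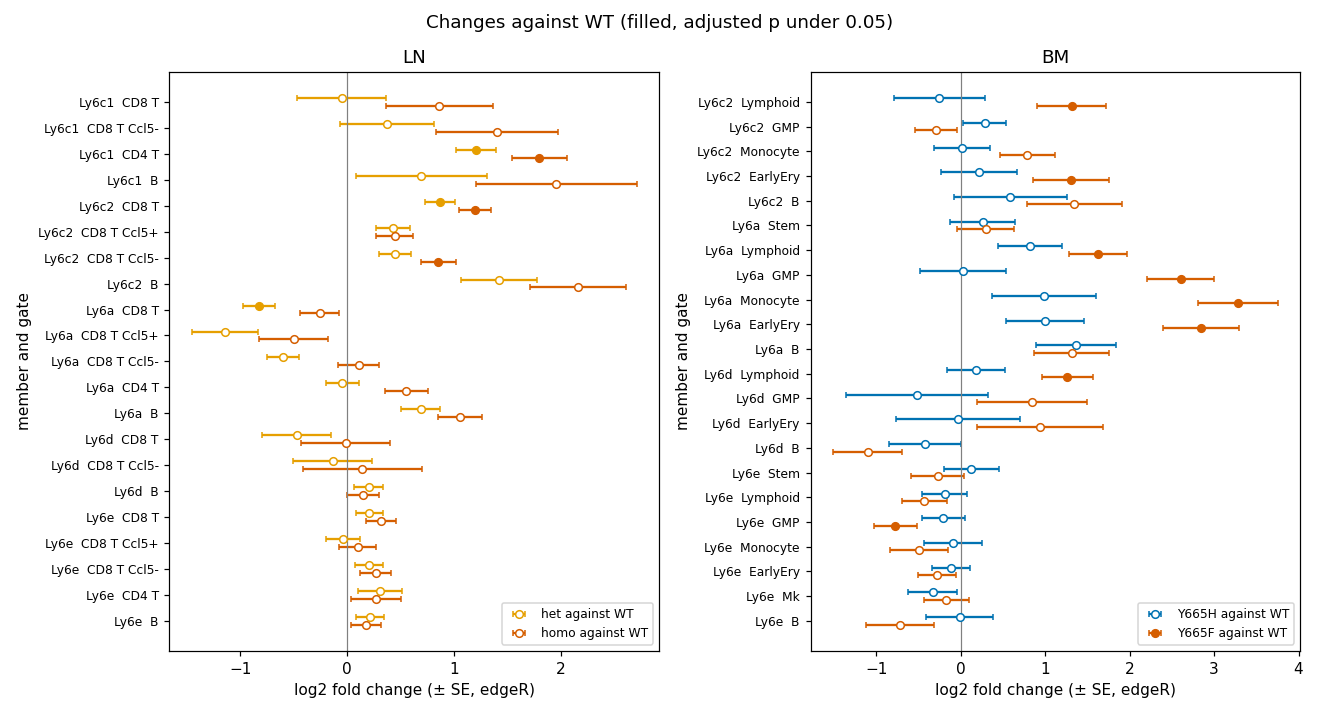
Log2 fold changes of Ly6 genes by gate in LN (homo and het against WT) and BM (Y665F and Y665H against WT), with bars of 1 SE and filled points for adjusted p under 0.05 in edgeR. The highest called values are Ly6a in BM Monocyte (3.28), early erythroid (2.84) and GMP (2.60).

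Other genes with a LY6/uPAR domain were counted from a list of 38, of which 36 were in the matrices. In LN only 2 were tested in CD8 T, 0 in CD4 T and 3 in B, and edgeR called 0 in homo (0 at an unadjusted p under 0.05). In BM, Y665F against WT called 3 of the 4 tested in GMP, where 27.6% of all genes were called, namely Cd59a (1.86, edgeR, adjusted p = 0.000899), Plaur (-1.54, adjusted p = 0.00108) and Ly6k (-2.04, adjusted p = 0.0146). Cd59a encodes an inhibitor of complement, and Plaur the urokinase receptor. In Lymphoid 1 of 2 was called, Plaur (-1.85, edgeR, adjusted p = 0.0297), where 8.6% of genes were called. In the early erythroid gate 2 of 6 were called, Gml (-1.52, edgeR, adjusted p = 0.0420) and Gml2 (-1.27, adjusted p = 0.00426), where 32.3% were.

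The genes whose WT pattern over gates was most like each member are a description, since gates share libraries and markers. Over 11 spleen gates, Ly6d was closest to Cd79a of the B cell receptor (Pearson r = 0.985) and Ly6g to Foxq1 (r = 0.9998). Over 7 BM gates, Ly6d was closest to Tmem29 (r = 0.988), followed by Rag2 (0.979), Ppp3cc (0.974), Rag1 (0.970) and Il7r (0.965), of which Rag1 and Il7r defined the Lymphoid gate. Ly6a was closest to Gramd1a (0.988), Ly6c2 to Zeb2os (0.990) and Ly6e to Prkcd (0.982) there. In spleen Ly6c1 was closest to Prg4 (0.912), Ly6c2 to Racgap1 (0.913) and Ly6e to Pou2f2 (0.936).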

How the data were processed

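Libraries were made with the 10x Chromium droplet system. The authors deposited filtered matrices of UMI counts per gene and cell. Per the file headers, spleen and BM were counted with Cell Ranger 6.0.0 and LN with 5.0.0. The labels name a 3′ kit and the methods a 5′ kit, and the kit was not settled. A 3′ or 5′ end can reach different differences between Ly6c1 and Ly6c2. The aligner's handling of shared reads is not given in the sources used here. The 7 T cell receptor libraries, all of LN and by the methods made with a 5′ kit, were not used here. The labels name C57BL/6 as the strain.

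The members and gene lists were chosen with earlier results of these data known. A barcode was kept when it had 200 genes or more and no more than 10% of its UMIs were mitochondrial. Each entered the gate whose list had the most markers detected, with a lead of 1. At least 2 markers were needed for T and B lists and 3 for others, and abundant markers counted from 3 UMIs (S100a8 and S100a9 from 10). CD8 T cells needed a CD8 marker, CD4 T cells Cd4 without Foxp3, and Treg Foxp3 without a CD8 marker. The Cd4 requirement of the Treg gate was dropped before member values were read. Ccl5+ meant at least 1 UMI in LN and 3 in spleen, and Ccl5- meant 0. No doublet caller was run, and leaving out barcodes above the 98th percentile of UMIs was an alternative. Gates with under 20 cells in any library were not tested.

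UMI counts were summed per library and gate and tested with edgeR 4.0.16 (quasi-likelihood, TMM, filterByExpr, R 4.3.3), with all genotypes of a tissue in 1 fit per gate. Benjamini-Hochberg adjustment ran over all genes of a gate, and calls were made at an adjusted p under 0.05. The standard error was taken as the log2 fold change over the root of its F statistic. Differences between gates used library as a block. These, except for CD8 T minus CD4 T in LN and the B gate of BM minus LN, and the spleen rule (2-fold, at least 20 CPM) were chosen after member values were seen. In CD8 T minus B, CD8 T minus CD4 T, Ccl5+ minus Ccl5- and GMP minus Stem, p followed a normal tail of the change over its standard error. The p-values of the LN CD4 T gate lay close to such a tail as well. In all of these the spread was pooled over genes, so the size of p does not measure how 1 member varied between libraries. DESeq2 1.42.0 and other settings are given at the end. On simulated counts, 2-fold and 4-fold changes were recovered at 69% and 88% in LN CD8 T (9459 genes, 7.65% of calls false) and at 38% and 92% in BM GMP (10346 genes, 7.80% false). Named genes were the 6 members, other LY6/uPAR genes that were called, up to 3 interferon-induced genes per gate, and the genes nearest to each member over WT gates with at least 30 cells and 20 CPM. Gene positions came from GENCODE vM21, in which 32158 of 32285 identifiers were found, and promoter windows from RefSeq, which held 3 of the 6 members.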

Additional observations from a re-analysis of the deposited data

Results flagged for a closer look

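In 4 pairs of gates the change of a member against WT differed by the test of the difference itself, in edgeR with library as a block. Ly6a in LN changed less, or downwards, in CD8 T cells than in B cells, by -1.43 (homo, adjusted p = 1.09e-14) and -1.58 (het, adjusted p = 9.20e-30) on the log2 scale. It changed by -0.84 in CD8 T minus CD4 T cells of het (adjusted p = 1.52e-05). In BM, the Y665F change of Ly6a in GMP minus Stem was 2.35 (adjusted p = 1.46e-07), that of Ly6c2 between the same gates was -1.87 (adjusted p = 0.0156), and that of Ly6d in B minus Lymphoid was -2.28 (adjusted p = 0.000159). The Ly6c2 value and the Ly6a value between CD8 T and CD4 T cells were lost without some single libraries, as given above. Except for Ly6d, these p-values rest on a spread pooled over genes. Of these pairs only CD8 T minus CD4 T was set before member values were seen. The adjustment does not cover the choice of the other pairs.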

How the results depend on the processing

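Over 68 single results of members, 866 alternatives were computed. In 771 the direction and the side of the threshold were those given above, in 45 a call was lost, in 46 one was gained and in 4 the direction turned. The turns came with single libraries left out, where Ly6c1 in LN CD4 T, homo against het, ranged from -0.0056 (without homo replicate 2) to 0.74, Ly6c2 in the early erythroid gate from -0.014 to 1.97 against WT and from -0.21 to 1.78 against Y665H (both lowest without BM Y665F replicate 2), and Ly6a in Lymphoid against Y665H from -0.088 (without BM Y665F replicate 1) to 1.35. The cause was not tested. For homo against WT in LN the 2 calls became 4 with every gene of 1 UMI or with the replicate block, and 1 (without homo replicate 2) to 4 (without WT replicate 1) when single libraries were left out. For het against WT the 3 calls became 1 in DESeq2, 5 with every gene, 1 with a log2 fold change over 1, and 0 (without WT replicate 2) to 4 with single libraries left out. Homo against het went from 0 to 1 with 500 genes per cell. In BM, Y665F against WT went from 8 to 5 in DESeq2 and to 5 to 8 with single libraries left out (5 without Y665F replicate 2). Y665F against Y665H went from 5 to 8 with the replicate block and to 3 (without Y665H replicate 1) to 8 (without Y665F replicate 1). The difference between CD8 T and CD4 T was called for 1 member in homo with RLE factors and for 0 to 1 in het with single libraries left out, and that between the B gates of BM and LN for 0 to 1 (1 without BM WT replicate 1). In spleen, Y665H had 3 members past 2-fold with a lead of 2 markers. At 1000 UMIs the share of CD8 T cells with Ly6c2 differed by 30.7 points between homo and WT (21.3 at 500), and that of GMP with Ly6a by 2.69 points between Y665F and WT (1.67 at 500). Same-numbered libraries deviated together with r of -0.25 to 0.08 in LN and -0.30 to 0.34 in BM, so the numbers were not taken as pairs. In BM the number also stands for sex, and the counts with it as a block are given above. With 2 or 3 libraries per group, 1 per genotype in spleen, and few UMIs in small gates, a missed call of a low member does not show that its level did not differ.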
